A study of Mus musculus with 7 samples.

Results

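Ovaries of infertile mice were compared with those of all fertile mice in the study, and genes were sought for which both fertile groups stood on the same side of the infertile one. All 7 bulk RNA-seq libraries of the series entered, chosen by the fertility state in their titles, with 3 infertile and 4 fertile. Infertile ovaries came from Abcg5/g8 KO mice that were CD-fed (3 libraries). Fertile ovaries came from Abcg5/g8 KO mice that were VOFD-fed (2 libraries) and from WT mice that were CD-fed (2 libraries). The fertile groups therefore differ in genotype and in diet, and each shares one of these with the infertile group. Full names of the diets were not given in the sources used here. Mice were 8 to 12 weeks old and each ovary was homogenised by itself, but nothing says that each library came from its own animal. The p-values therefore measure only how these samples vary, which can be technical in part. Expression was given as TPM (a share of all transcripts, scaled by gene length), so the sequencing depth is unknown. Of 34866 genes in the table, 15487 had at least 1 TPM in at least 2 libraries and were tested.

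ABCG5 and ABCG8 pair to form a transporter that pumps cholesterol and plant sterols out of liver and intestinal cells, so its loss lets plant sterols build up in the body. After ovulation the emptied follicle becomes a corpus luteum, whose luteal cells take up or make cholesterol and turn it into progesterone. In rodents the corpus luteum ends its life when prostaglandin F acts on its receptor and an enzyme that inactivates progesterone is switched on. Cells that run short of sterol activate SREBP2, which raises the genes of cholesterol synthesis together.

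Abcg8 and Abcg5 were at no more than 0.212 TPM in any ovary library, so they give no check of the genotype. Markers of the labelled tissue were there, since the granulosa gene Fshr (7.47 to 25.0 TPM), the follicle hormone gene Amh (57.8 to 379.8 TPM) and the egg coat gene Zp3 (48.2 to 133 TPM) were present in every library. The infertile libraries stood far apart from each other. On the first principal component (39.66% of the variance) they lay at -7.21, 19.6 and 65.5, against -29.7 to -15.1 in the fertile libraries. Infertile library 1 alone was far out on the second component (18.81%), at 45.1 against -19.9 to 14.0 in the other 6. Mitochondrial transcripts were 11.7% to 17.2% of TPM in infertile and 16.7% to 18.3% in fertile libraries.

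In infertile ovaries 38 genes differed from the 4 fertile libraries, 9 higher and 29 lower (limma, Benjamini-Hochberg adjusted p under 0.05). That is 0.245% of genes tested, 0.0581% higher and 0.187% lower, while 2389 genes (15.4%) had an unadjusted p under 0.05. Among the higher genes were the chemokine gene Ccl8, the potassium channel gene Kcnt1, the steroid reductase gene Srd5a1 and a haemoglobin gene. Among the lower ones were the luteal genes Akr1c18, Ptgfr and Sfrp4, the endothelial lipase gene Lipg and the sterol synthesis genes Msmo1, Idi1 and Cyp51. In each of the 38 all 3 infertile libraries lay on one side of all 4 fertile ones, which held for 2318 genes (15%) in the table, 1735 higher (11.2%) and 583 lower (3.76%). An exact permutation test over the 35 ways to split 7 libraries gave each of the 38 the smallest 2-sided p it allows, 0.0571, so it cannot pass 0.05.

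Differences are in log2(TPM + 1), infertile minus fertile, a scale that understates the change of genes at low TPM. The median over all genes tested was 0.15, and it is about 0 after median-of-ratios scaling or quantile normalisation. With these scalings genes apart between the groups were 1030 higher and 1246 lower, and 1115 higher and 1224 lower, so 45.3% and 47.7% were higher, against 74.8% without. The calls without rescaling were 9 higher and 29 lower, those with median-of-ratios scaling 13 higher and 53 lower, and those with quantile normalisation 12 higher and 47 lower.

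**Figure D1:**
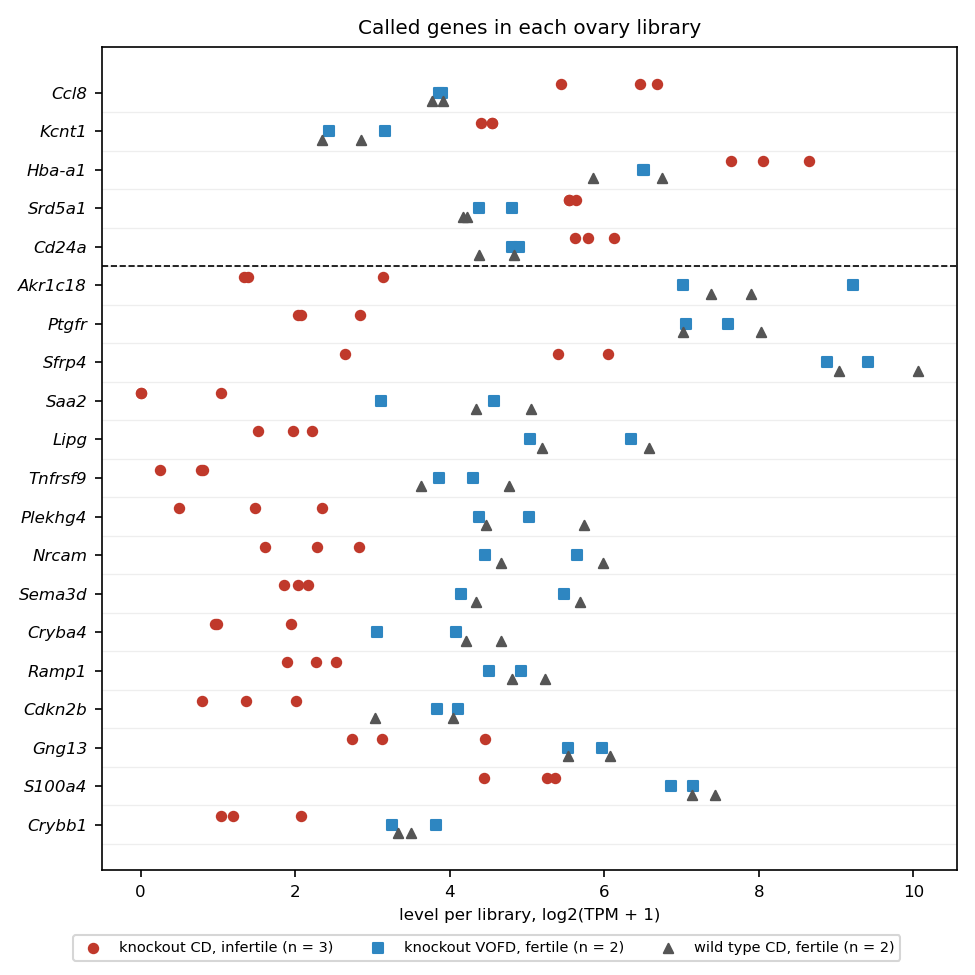
Level in each library, in log2(TPM + 1), of the 20 genes named by rule, with 5 higher genes above the dashed line and 15 lower genes below it. Red circles are infertile knockout CD libraries, blue squares fertile knockout VOFD and grey triangles fertile wild type CD. In each row the infertile libraries stand clear of all 4 fertile ones, as the naming rule required. Squares and triangles overlap in all rows but Srd5a1 and Cryba4.

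A stricter test asked each gene to differ from both fertile groups, by taking the larger of the p-values against KO VOFD and against WT CD. By this test 4 genes passed (0.0258% of genes tested), the pseudogene Gm12191 higher (0.00646%) and Ptgfr, Tnfrsf9 and Ramp1 lower (0.0194%). At an unadjusted p under 0.05 there were 471 genes higher (3.04%) and 216 lower (1.39%), and all 38 genes of the pooled test were among them. These contrasts share the infertile libraries. Between KO VOFD and WT CD ovaries 2 genes differed (0.0129%), the processed pseudogenes Gm45315 and Gm6969. At an unadjusted p under 0.05 there were 308 (1.99%). None of the 38 was among them, and the 95% interval of that difference included 0 for all 38. That difference had a median size of 0.20 and reached 0.87, for Cryba4. A p over the threshold does not show that the fertile groups were equal. The pooled test counts a gap between the fertile groups as spread, so it favours genes in which they lie close. The agreement of the fertile groups among the 38, and their unadjusted p against each group, thus follow in part from how they were picked.

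**Figure D2:**
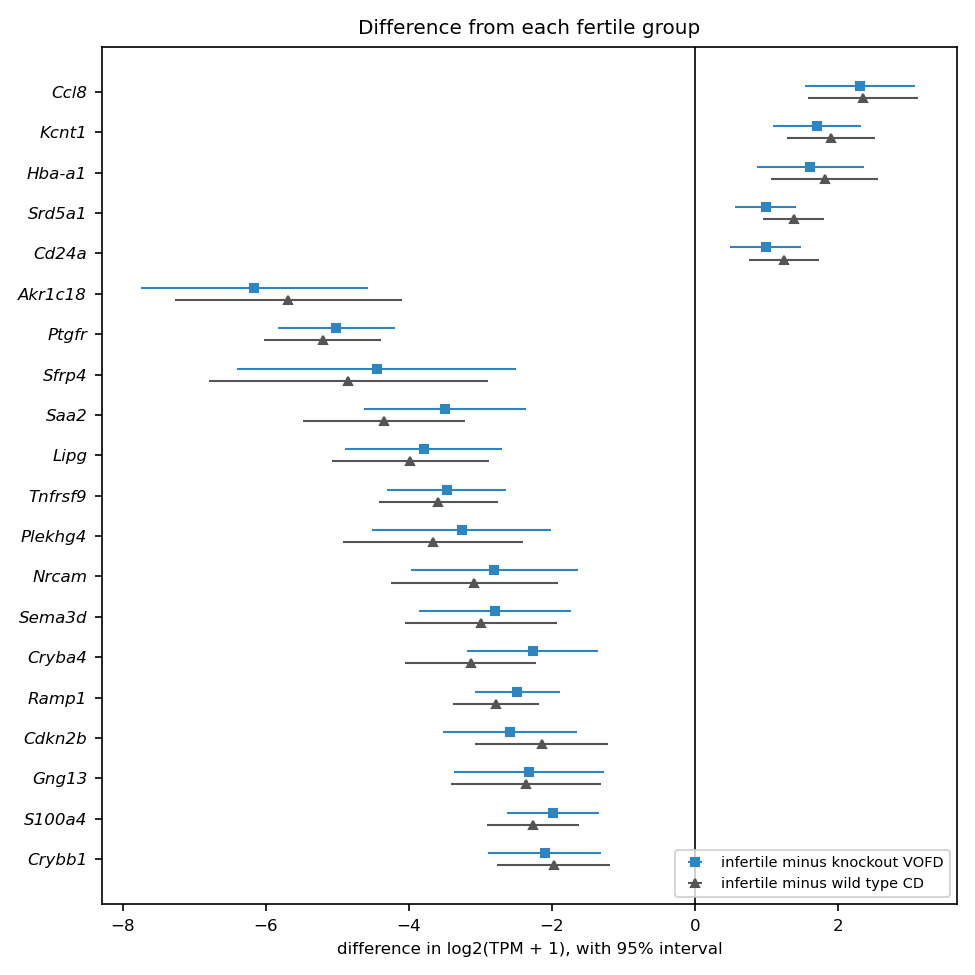
Difference of infertile ovaries from each fertile group in log2(TPM + 1), with its 95% interval, for the same 20 genes. Blue squares are infertile minus knockout VOFD and grey triangles infertile minus wild type CD. As the naming rule required, both stand on the same side of 0 in every row. Examples are -5.01 and -5.20 for Ptgfr and 2.31 and 2.35 for Ccl8.

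The 3 largest falls among the 38 were in luteal genes. Ptgfr (ENSMUSG00000028036.6, GRCm38 chromosome 3, 151796502 to 151837630), the prostaglandin F receptor gene, was at 3.12, 3.22 and 6.17 TPM in infertile ovaries, at 193 and 133 TPM in KO VOFD and at 129 and 259 TPM in WT CD. Its infertile levels lay far below both fertile groups, which overlapped each other. Ptgfr fell by 5.11 on the log2 scale (SE 0.28, limma adjusted p = 9.79e-05; 0.00292 against both groups), and no removal of 1 library ended either call. Akr1c18 (ENSMUSG00000021214.14, chromosome 13, 4132615 to 4150654), whose enzyme inactivates progesterone, was at 7.79, 1.54 and 1.62 TPM in infertile ovaries, at 128 and 596 TPM in KO VOFD and at 165 and 238 TPM in WT CD. The fertile libraries spanned a wide range, with both ends in KO VOFD, yet the lowest was far above any infertile one. Akr1c18 fell by 5.92 (SE 0.56, limma adjusted p = 0.00486) and kept its call without any 1 library, while against both groups it missed the threshold (0.0839).

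Sfrp4 (ENSMUSG00000021319.7, chromosome 13, 19623104 to 19632994), a secreted WNT antagonist gene expressed in rodent corpora lutea, was at 41.1, 5.26 and 65.4 TPM in infertile ovaries, at 681 and 472 TPM in KO VOFD and at 522 and 1068 TPM in WT CD. Every infertile library was below every fertile one, and infertile library 2 was well below the other infertile ones. Sfrp4 fell by 4.65 (SE 0.68, limma adjusted p = 0.0328), a call lost without any 1 fertile library (adjusted p up to 0.137). Lhcgr, the luteinising hormone receptor gene, was at 55.4, 33.3 and 20.3 TPM in infertile ovaries, at 162 and 81.9 TPM in KO VOFD and at 97.4 and 171 TPM in WT CD. Its infertile levels were all below the fertile ones, but it missed the threshold (difference -1.83, limma adjusted p = 0.0802). Of 23 tested genes on the luteal list, 0 rose and 3 fell, beside 0.0581% and 0.187% of all genes. A negative difference was seen in 17, and the median was -0.67 against 0.15 over all genes. The groups were apart in 7 lower and 2 higher members of the 23, beside 3.76% and 11.2% of all genes.

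The luteal genes did not move as one. Hsd3b1, the enzyme gene that makes progesterone, was at 5326, 4259 and 3856 TPM in infertile ovaries, at 5183 and 4196 TPM in KO VOFD and at 4683 and 4942 TPM in WT CD, so the groups overlapped. Cyp11a1, which makes the first cut in cholesterol on the way to steroids, was at 2481, 250 and 602 TPM in infertile ovaries, at 1993 and 1494 TPM in KO VOFD and at 1357 and 2365 TPM in WT CD. Infertile library 1 was thus above every fertile library and libraries 2 and 3 below. Without library 1, Cyp11a1, Star (the cholesterol carrier gene of mitochondria), Lhcgr, Idh1 and Timp1 fell too, which made 8 lower and 2 higher of the 23. Over all genes tested, that fit called 192 lower and 473 higher. In bulk tissue fewer luteal cells and less RNA per luteal cell cannot be told apart. The summed TPM of the list was 5840 to 10027 in infertile ovaries, 8976 to 10536 in KO VOFD and 9044 to 11941 in WT CD.

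Other prostaglandin genes gave no second call. Of 19 tested, 1 fell (Ptgfr) and 0 rose, beside 0.187% and 0.0581% of all genes. The list median was 0.07 against 0.15 over all genes. This list median turned to -0.07 with median-of-ratios scaling and to -0.04 with quantile normalisation. Ptgds, a prostaglandin D synthase gene, was at 5.82, 5.05 and 4.86 TPM in infertile ovaries, at 20.3 and 16.2 TPM in KO VOFD and at 9.41 and 12.9 TPM in WT CD. These groups did not overlap, the difference was -1.29 and the limma adjusted p was 0.0755. After median-of-ratios scaling it was 0.0328 and after quantile normalisation 0.0325, so Ptgds fell by either.

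Receptor genes outside the prostaglandin list included Ramp1 (ENSMUSG00000034353.14, chromosome 1, 91179822 to 91225196), whose protein joins the receptor CALCRL to form the receptor of the neuropeptide CGRP. Ramp1 was at 4.78, 3.80 and 2.72 TPM in infertile ovaries, at 21.7 and 29.3 TPM in KO VOFD and at 26.9 and 36.5 TPM in WT CD. All 4 fertile libraries were well above the infertile ones. It fell by 2.63 (SE 0.22, limma adjusted p = 0.00172) and kept this call without any 1 library. Against both groups the adjusted p was 0.0341, and that call held in 1 of 7 fits that left out 1 library, the one without infertile library 1 (0.0131), with 0.0544 to 0.439 in the other 6. Either scaling ended it as well (0.0709 after median-of-ratios scaling, 0.0684 after quantile normalisation). Calcrl, the partner receptor gene, was at 13.7, 12.0 and 11.2 TPM in infertile ovaries, at 22.5 and 17.6 TPM in KO VOFD and at 13.7 and 20.4 TPM in WT CD (difference -0.54, adjusted p = 0.251). Of the 20 hormone receptor and G protein signalling genes tested 1 fell and 0 rose, beside 0.187% and 0.0581% of all genes, and the median was -0.11.

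Tnfrsf9 (ENSMUSG00000028965.13, chromosome 4, 150914562 to 150946102), which encodes a costimulatory receptor known from activated T cells, was at 0.712, 0.745 and 0.190 TPM in infertile ovaries, at 18.7 and 13.5 TPM in KO VOFD and at 11.4 and 26.2 TPM in WT CD. It was thus under 1 TPM in every infertile library and above 11 TPM in every fertile one. Tnfrsf9 fell by 3.53 (SE 0.29, limma adjusted p = 0.00172) and kept this call without any 1 library. Against both groups the adjusted p was 0.0341, a call that held without infertile library 1 (0.0178) or WT CD library 1 (0.0379) and was lost in the other 5 fits (0.0929 to 0.440). T cell genes ran low in all ovaries, for example Cd3d at 1.42 to 2.13 TPM in infertile, 0.891 to 1.29 TPM in KO VOFD and 0.632 to 1.27 TPM in WT CD. Of the 14 ovulation and cumulus genes it is listed with, no other passed, where 0.245% of all genes did. Their median of 0.05 turned to -0.08 with median-of-ratios scaling and to -0.03 with quantile normalisation.

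Of 24 cholesterol synthesis genes tested, 3 fell and 0 rose, beside 0.187% and 0.0581% of all genes. Msmo1 (ENSMUSG00000031604.10, chromosome 8, 64718139 to 64733792), a sterol methyl oxidase gene, was at 65.7, 47.5 and 67.6 TPM in infertile ovaries, at 180.3 and 156 TPM in KO VOFD and at 126 and 163 TPM in WT CD. Idi1 (ENSMUSG00000058258.14, chromosome 13, 8885501 to 8892451), which makes a building block of sterols, was at 21.7, 12.6 and 14.5 TPM in infertile ovaries, at 58.6 and 55.5 TPM in KO VOFD and at 38.7 and 64.4 TPM in WT CD. Cyp51 (ENSMUSG00000001467.5, chromosome 5, 4081145 to 4104746), the lanosterol demethylase gene, was at 15.9, 12.1 and 15.0 TPM in infertile ovaries, at 43.3 and 35.6 TPM in KO VOFD and at 28.5 and 45.6 TPM in WT CD. In each of the 3 every infertile library was below every fertile one, and WT CD library 1 was the lowest fertile library. Msmo1 fell by 1.36 (SE 0.17), Idi1 by 1.69 (SE 0.22) and Cyp51 by 1.34 (SE 0.19), with limma adjusted p of 0.0190, 0.0218 and 0.0274. Msmo1 lost its call without infertile library 2, KO VOFD library 1 or WT CD library 2 (up to 0.0610), and Idi1 (up to 0.0773) and Cyp51 (up to 0.102) kept theirs in 2 of 7 such fits, those without infertile library 1 or WT CD library 1.

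The promoter windows of these 3 genes are shown because the genes fell together. They run from 250 bases before to 50 bases after a RefSeq start (build GRCm38.p6, printed in the direction of the gene). In all 3 genes that start lies inside the gene coordinates given above. Part of the window before it is thus within those coordinates. Capitals mark CCAAT and its reverse complement ATTGG, the letters read by the factor NF-Y, which is known to work beside SREBP2 at sterol gene promoters. This motif was chosen after the data were seen. The windows are chr8:64733529-64733828 on the minus strand, chr13:8885356-8885655 on the plus strand and chr5:4104648-4104947 on the minus strand.
Msmo1: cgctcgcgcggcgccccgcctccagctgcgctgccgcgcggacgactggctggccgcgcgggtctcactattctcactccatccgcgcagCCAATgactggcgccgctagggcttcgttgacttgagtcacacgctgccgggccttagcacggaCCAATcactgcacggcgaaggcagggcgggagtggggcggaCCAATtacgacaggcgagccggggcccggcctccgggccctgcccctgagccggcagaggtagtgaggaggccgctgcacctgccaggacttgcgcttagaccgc
Idi1: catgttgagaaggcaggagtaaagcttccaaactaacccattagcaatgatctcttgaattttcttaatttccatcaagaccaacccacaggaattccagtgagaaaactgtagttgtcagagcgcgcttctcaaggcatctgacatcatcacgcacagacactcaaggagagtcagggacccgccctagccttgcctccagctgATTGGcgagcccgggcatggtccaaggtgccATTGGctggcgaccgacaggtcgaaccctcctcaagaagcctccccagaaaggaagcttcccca
Cyp51: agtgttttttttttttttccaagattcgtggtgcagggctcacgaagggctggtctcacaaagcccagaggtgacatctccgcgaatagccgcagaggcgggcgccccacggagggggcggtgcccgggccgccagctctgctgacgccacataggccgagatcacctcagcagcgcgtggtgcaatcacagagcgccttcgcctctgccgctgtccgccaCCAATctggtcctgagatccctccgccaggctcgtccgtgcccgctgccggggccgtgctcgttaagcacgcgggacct

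Msmo1 held 3 such motifs, Idi1 2 and Cyp51 1. CCAAT on either strand stood in 16 of 17 windows of cholesterol genes with a RefSeq window (94.1%; Acat2 had none), in 13 of 26 windows of called genes and in 4787 of 11229 windows of all genes tested (42.6%). The letters AAGGTCA, the core read by the ovarian factors NR5A1 and NR5A2, stood on either strand in 1 of the 26 windows of called genes (Cryba4, 3.85%), in 2 of 17 of cholesterol genes (Dhcr7 and Hmgcs1, 11.8%) and in 451 of 11229 in all (4.02%). Neither motif contains the other. A match is a description of the letters, and no match says only that they are not in this window.

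Across the pathway 22 of 24 tested genes had a negative difference, with a median of -0.74 against 0.15 over all genes, -0.84 against KO VOFD and -0.60 against WT CD. The groups were apart in 12, lower in infertile ovaries, beside 3.76% of all genes. Sc5d, a sterol desaturase gene, was at 35.8, 34.9 and 41.0 TPM in infertile ovaries, at 87.5 and 78.4 TPM in KO VOFD and at 55.6 and 72.9 TPM in WT CD (difference -0.95, adjusted p = 0.0635). Sc5d passed under either scaling, with a limma adjusted p of 0.0113 under median-of-ratios scaling and 0.0172 under quantile normalisation. Tm7sf2 and Mvk had differences of 0.09 and 0.08 and were the members with a positive sign. Median-of-ratios scaling gave 7 lower calls and quantile normalisation 6, each with 18 members apart. Without infertile library 1, 8 members were called, in a fit where 192 of all genes tested were called lower. The count of members called was 0 without infertile library 2, KO VOFD library 1 or WT CD library 2. It was 1 without infertile library 3 and 2 without KO VOFD library 2. In the fits with 0 to 2 members called the median stayed between -0.79 and -0.60.

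**Figure D3:**
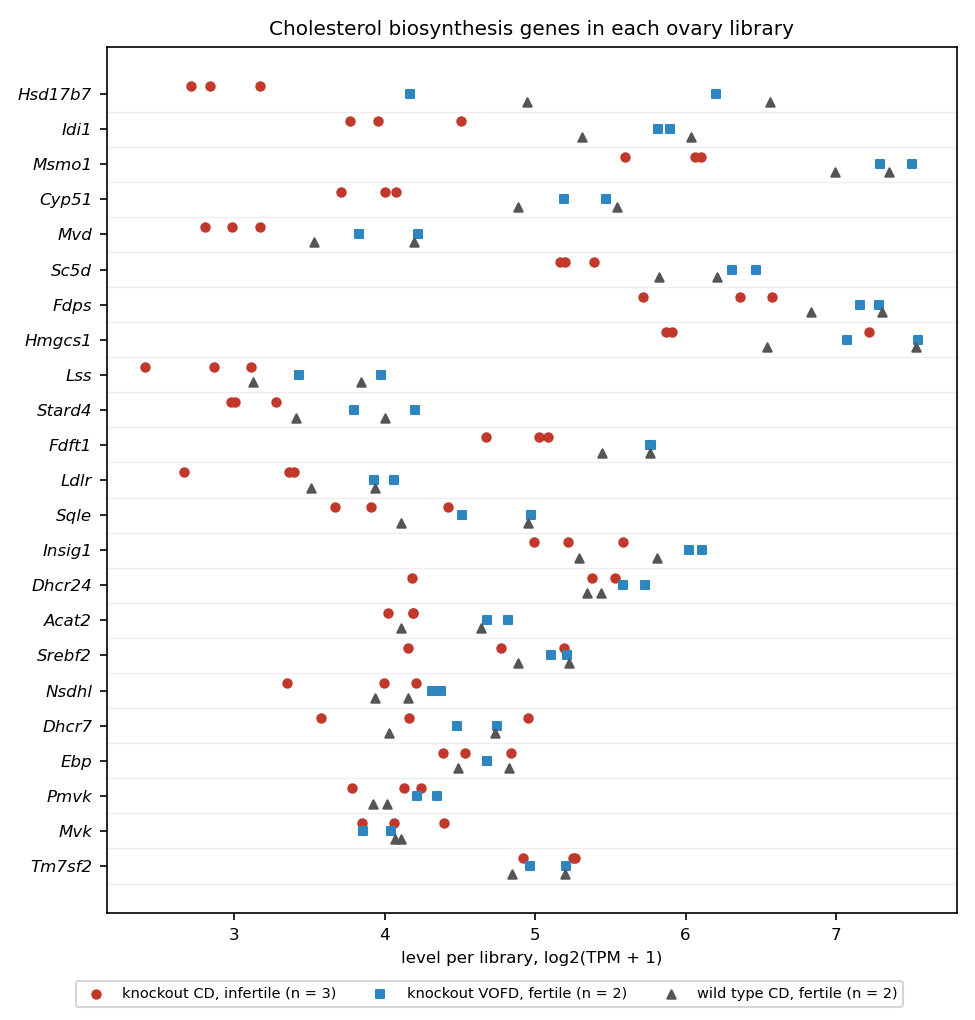
Level in each library, in log2(TPM + 1), of 23 of the 24 tested cholesterol biosynthesis genes, ordered by their difference. Red circles are infertile knockout CD libraries, blue squares knockout VOFD and grey triangles wild type CD; in 11 rows the circles stand left of all other marks, and in the lowest rows, from Ebp to Tm7sf2, the groups mix.

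Hsd17b7, which serves both sterol synthesis and the making of oestradiol in the rodent corpus luteum, was at 5.56, 6.14 and 8.00 TPM in infertile ovaries, at 72.6 and 17.0 TPM in KO VOFD and at 29.8 and 93.5 TPM in WT CD. Every infertile library was below every fertile one, but the fertile libraries were wide apart and the call was missed (difference -2.56, adjusted p = 0.0838). Among 22 steroid hormone genes tested 1 rose (Srd5a1) and 1 fell (Akr1c18), beside 0.0581% and 0.187% of all genes, and the median was -0.09. Srd5a1 (ENSMUSG00000021594.11, chromosome 13, 69573449 to 69611442), a reductase gene for progesterone and testosterone, was at 45.8, 48.7 and 45.8 TPM in infertile ovaries, at 27.1 and 19.7 TPM in KO VOFD and at 17.0 and 17.7 TPM in WT CD. Infertile levels were close to each other and above all fertile ones. Srd5a1 rose by 1.18 (SE 0.17, limma adjusted p = 0.0328), a call lost with quantile normalisation and kept in 2 of 7 fits that left out 1 library, those without infertile library 1 or KO VOFD library 1 (up to 0.125 in the others). Its sister gene Srd5a2 was at 15.3, 5.01 and 6.33 TPM in infertile ovaries, at 35.7 and 40.0 TPM in KO VOFD and at 25.0 and 27.1 TPM in WT CD, the opposite order (difference -1.86, adjusted p = 0.0635; 0.00227 without infertile library 1). Hsd17b2, not on that list, which turns oestradiol into oestrone, was at 14.1, 11.4 and 9.35 TPM in infertile ovaries, at 23.9 and 28.9 TPM in KO VOFD and at 36.4 and 24.8 TPM in WT CD. It fell by 1.22 (limma adjusted p = 0.0497), a call kept in 1 of 7 fits that left out a library, the one without infertile library 1 (up to 0.140 in the others).

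Lipg (ENSMUSG00000053846.4, chromosome 18, 74939322 to 74961263), the gene of a lipase that acts on high density lipoprotein, was at 3.64, 1.88 and 2.92 TPM in infertile ovaries, at 80.3 and 32.0 TPM in KO VOFD and at 35.5 and 94.6 TPM in WT CD. No infertile library came near the lowest fertile one. Lipg fell by 3.89 (SE 0.38, limma adjusted p = 0.00548) and kept its call without any 1 library. It was the single call among 23 lipid storage and uptake genes, beside 0.187% of all genes called lower. The median of these genes was 0.50, with 4 members apart higher and 1 lower (11.2% and 3.76% of all genes). That order turned round under median-of-ratios scaling, with 0 apart higher and 3 lower, and under quantile normalisation, with 2 higher and 3 lower (median 0.34 under each). It turned over all genes too, with 1030 apart higher and 1246 lower, and 1115 higher and 1224 lower. LXR target genes, which answer to oxysterols and some plant sterols, had 0 calls of 17, a median of 0.28 and 3 members apart higher and 0 lower. Under either scaling the median was 0.12, with 2 members apart higher and 2 lower. Abca1, a sterol exporter gene of this list, was at 93.2, 47.7 and 66.0 TPM in infertile ovaries, at 39.6 and 30.5 TPM in KO VOFD and at 18.5 and 25.2 TPM in WT CD (difference 1.25, adjusted p = 0.112).

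Adipose tissue genes had a median of 1.40 over 13 tested members with 11 positive, 4 apart higher (11.2% of all genes) and 0 calls. Where their RNA came from was not tested. Without infertile library 3 or KO VOFD library 2 there were 9 apart higher, and the share of all genes apart in those fits was not computed. Their summed TPM was 1753 to 3699 in infertile ovaries, 748 to 1600 in KO VOFD and 382 to 969 in WT CD. Cfd, the adipsin gene, was at 828, 868 and 327 TPM in infertile ovaries, at 138 and 223 TPM in KO VOFD and at 184 and 65.1 TPM in WT CD (difference 2.15, adjusted p = 0.0955). Lipe and Fabp4 stand on the adipose and the lipid list. The part of adipose RNA in the lipid and LXR values was not tested.

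Ccl8 (ENSMUSG00000009185.2, chromosome 11, 82115185 to 82116799), a chemokine gene for monocytes, was at 42.3, 87.3 and 101 TPM in infertile ovaries, at 13.6 and 13.9 TPM in KO VOFD and at 14.1 and 12.6 TPM in WT CD. The 4 fertile libraries were nearly level, and each infertile one was above them. Ccl8 rose by 2.33 (SE 0.26, limma adjusted p = 0.0111), a call lost without infertile library 2 or WT CD library 1 (up to 0.0581). Saa2 (ENSMUSG00000057465.5, chromosome 7, 46751790 to 46754313), an acute phase gene, was at 1.06 TPM in infertile library 1 and listed at 0 in libraries 2 and 3, against 22.8 and 7.63 TPM in KO VOFD and 19.2 and 32.1 TPM in WT CD. It fell by 3.92 (SE 0.44, limma adjusted p = 0.0111), a call lost without infertile library 2 or WT CD library 1 (up to 0.0599). Saa3, its relative made by macrophages and fat, was at 3.56, 2.73 and 5.61 TPM in infertile ovaries, at 10.2 and 14.4 TPM in KO VOFD and at 8.81 and 19.5 TPM in WT CD (difference -1.50, adjusted p = 0.0834). Saa3 passed under either scaling, with 0.0328 under median-of-ratios scaling and 0.0341 under quantile normalisation. Of 17 cytokine and acute phase genes, 1 rose and 1 fell, beside 0.0581% and 0.187% of all genes, and the median was -0.16.

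Among antibody genes the values were mixed. The antibody light chain genes Igkc and Iglc1, outside the naming rule and named after their values were seen, both rose. Igkc was at 61.9, 236 and 206 TPM in infertile ovaries, at 19.1 and 27.3 TPM in KO VOFD and at 30.2 and 20.5 TPM in WT CD (difference 2.55, limma adjusted p = 0.0497). Iglc1 was at 11.0, 19.8 and 18.6 TPM in infertile ovaries, at 2.94 and 1.91 TPM in KO VOFD and at 2.43 and 1.47 TPM in WT CD (difference 2.43, adjusted p = 0.00671). The call of Iglc1 held without any 1 library, and that of Igkc in no such fit other than the one without infertile library 1 (up to 0.157). Jchain, which links antibody units, was at 13.7, 58.3 and 39.5 TPM in infertile ovaries, at 3.53 and 6.36 TPM in KO VOFD and at 7.70 and 7.02 TPM in WT CD (difference 2.24, adjusted p = 0.0802). In these 3 genes infertile library 1 was the lowest infertile library and still above the fertile ones. Iglc3, another light chain gene, was at 2.51, 2.55 and 99.7 TPM in infertile ovaries, at 3.56 and 3.30 TPM in KO VOFD and at 2.67 and 2.38 TPM in WT CD, so that infertile library 3 alone was high (difference 1.45, adjusted p = 0.480). Iglc2 was at 1.69, 3.20 and 22.4 TPM in infertile ovaries, at 1.30 and 0.859 TPM in KO VOFD and at 1.10 and 0.930 TPM in WT CD (difference 1.65, adjusted p = 0.262).

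Other blood and immune lists had few or no calls. Of 19 macrophage genes 18 were positive with a median of 0.46, of 10 lymphocyte and plasma cell genes 9 with a median of 0.48, and of 10 neutrophil and mast cell genes 10 with a median of 0.99. Each list had 0 calls and 3 members apart, higher in infertile ovaries, beside 11.2% of all genes. Without infertile library 1 macrophage genes had 2 higher calls and 12 apart, lymphocyte and plasma cell genes 1 and 8, and neutrophil and mast cell genes 4 and 7. Calls were more common over all genes in that fit, with 473 higher. The share of all genes apart in it was not computed, so 11.2% is no background for these counts. Under median-of-ratios scaling 4 macrophage genes were apart higher and 1 lower, and under quantile normalisation 3 higher and 1 lower. Lymphocyte and plasma cell genes had 2 and 3 apart higher, and neutrophil and mast cell genes 1 under either scaling. Over all genes 1030 of 15463 and 1115 of 15487 were apart higher with these scalings. S100a9, a neutrophil gene, was at 4.57, 65.8 and 40.3 TPM in infertile ovaries, at 2.66 and 7.60 TPM in KO VOFD and at 6.13 and 3.39 TPM in WT CD, so that infertile library 1 lay within the fertile range. Erythroid genes had 6 of 6 tested members apart higher, a median of 1.58 and 1 call. Median-of-ratios scaling left 4 apart and quantile normalisation 5, with 0 calls under each, while 4 were called without infertile library 1, 3 without infertile library 3 and 0 without any other 1 library. Hba-a1 (ENSMUSG00000069919.7, chromosome 11, 32283511 to 32284465), a haemoglobin alpha gene with a near copy in Hba-a2, was at 265, 399 and 199 TPM in infertile ovaries, at 89.3 and 90.4 TPM in KO VOFD and at 107 and 57.0 TPM in WT CD. It rose by 1.71 (SE 0.26, limma adjusted p = 0.0435), and its call was lost under both scalings and without infertile library 2 or any 1 fertile library (up to 0.102). Globin made up 0.126% to 0.304% of TPM in infertile and 0.0439% to 0.0833% in fertile libraries, and the part of blood in the immune values was not tested.

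Nrcam, one of the other lower genes named by rule and a cell adhesion gene known from neurons, was at 6.09, 2.04 and 3.88 TPM in infertile ovaries, at 49.0 and 20.9 TPM in KO VOFD and at 24.3 and 62.3 TPM in WT CD. Sema3d, a secreted guidance factor gene, was at 3.09, 2.60 and 3.50 TPM in infertile ovaries, at 43.8 and 16.7 TPM in KO VOFD and at 19.2 and 50.3 TPM in WT CD. Plekhg4, which encodes a guanine nucleotide exchange factor, was at 4.07, 0.407 and 1.80 TPM in infertile ovaries, at 31.5 and 19.9 TPM in KO VOFD and at 21.1 and 52.2 TPM in WT CD. In these 3 genes KO VOFD library 1 and WT CD library 2 were the high fertile libraries, as they were for Lipg, Ptgfr and Lhcgr. The falls were 2.95, 2.89 and 3.46 on the log2 scale, with limma adjusted p of 0.0271, 0.0202 and 0.0202.

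Cryba4 and Crybb1, crystallin genes known from the lens, are neighbours on chromosome 5 (112246493 to 112252518 and 112255815 to 112269585). Cryba4 was at 2.85, 0.954 and 0.988 TPM in infertile ovaries, at 15.9 and 7.36 TPM in KO VOFD and at 17.6 and 24.3 TPM in WT CD. Crybb1 was at 3.22, 1.29 and 1.06 TPM in infertile ovaries, at 13.2 and 8.49 TPM in KO VOFD and at 9.06 and 10.3 TPM in WT CD. Both were highest, among infertile ovaries, in library 1, and both fell (by 2.70 and 2.04, limma adjusted p 0.0274 and 0.0227). Cdkn2b, an inhibitor gene of the cell cycle, was at 1.58, 0.729 and 3.03 TPM in infertile ovaries, at 16.3 and 13.3 TPM in KO VOFD and at 7.15 and 15.4 TPM in WT CD. Gng13, a G protein subunit gene known from taste cells, was at 7.68, 5.65 and 20.9 TPM in infertile ovaries, at 45.2 and 61.9 TPM in KO VOFD and at 66.1 and 45.1 TPM in WT CD. S100a4, a calcium binding protein gene, was at 37.1, 20.8 and 40.3 TPM in infertile ovaries, at 116 and 141 TPM in KO VOFD and at 171 and 139 TPM in WT CD. In these genes every infertile library was below every fertile one. The falls were 2.36 for Cdkn2b, 2.34 for Gng13 and 2.13 for S100a4 (adjusted p 0.0292, 0.0435 and 0.00917).

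Of these 8 genes, S100a4 kept its call without any 1 library. Sema3d lost it without infertile library 2 or 3 (up to 0.0767), and Plekhg4 without infertile library 2 or 3, KO VOFD library 1 or WT CD library 1 (up to 0.0650). Cdkn2b lost it without infertile library 2, either KO VOFD library or WT CD library 2 (up to 0.0935). Nrcam, Cryba4 and Crybb1 kept it in 2 of 7 fits, those without infertile library 1 or KO VOFD library 2, and Gng13 in 2 of 7, those without infertile library 1 or 3 (up to 0.159 in the others).

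Lgr5 (ENSMUSG00000020140.15, chromosome 10, 115450311 to 115587780), a receptor gene of the R-spondins that marks stem cells, was at 15.4, 12.6 and 10.2 TPM in infertile ovaries, at 38.4 and 38.8 TPM in KO VOFD and at 29.9 and 39.5 TPM in WT CD. It fell by 1.46 (SE 0.17, limma adjusted p = 0.0149), a call lost without infertile library 2, KO VOFD library 1 or WT CD library 2 (up to 0.0584). With Sfrp4 it made 2 lower calls and 0 higher ones among 20 WNT genes, beside 0.187% and 0.0581% of all genes. The median of the WNT genes was near 0 (-0.00). Under median-of-ratios scaling that median lay at -0.16, and under quantile normalisation at -0.18.

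Genes that rose included Kcnt1 (ENSMUSG00000058740.14, chromosome 2, 25863734 to 25918273), a potassium channel gene, at 22.3, 20.2 and 22.5 TPM in infertile ovaries, at 7.92 and 4.44 TPM in KO VOFD and at 4.07 and 6.21 TPM in WT CD. Infertile levels were close together and above all fertile ones. Kcnt1 rose by 1.80 (SE 0.21, limma adjusted p = 0.0149), a call lost without infertile library 2 (0.0575). Cd24a, a cell surface gene, was at 48.2, 54.3 and 68.5 TPM in infertile ovaries, at 27.0 and 28.8 TPM in KO VOFD and at 19.7 and 27.4 TPM in WT CD. It rose by 1.12 (SE 0.18, limma adjusted p = 0.0497), a call kept in no fit without 1 library other than the one without infertile library 1 (up to 0.132). The next 5 by p, all apart and not past the threshold, were Ces1f (difference 2.44, adjusted p = 0.0525), Speer4b (1.26, 0.0534), Pacsin3 (0.83, 0.0581), Net1 (0.83, 0.0598) and Hba-a2 (1.53, 0.0623).

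Granulosa genes had 0 members that rose and 1 that fell of 22 tested, beside 0.0581% and 0.187% of all genes, with a median of 0.53. Without infertile library 1 there were 9 higher calls, 15 members apart higher and a median of 0.95. Over all genes tested, 473 were called higher in that fit, and the share of all genes apart in it was not computed. The median was 0.17 without infertile library 3. Kctd14 (ENSMUSG00000051727.14, chromosome 7, 97451323 to 97459557) was at 120.2, 131 and 126 TPM in infertile ovaries, at 223 and 261 TPM in KO VOFD and at 214 and 235 TPM in WT CD. It fell by 0.88 (SE 0.11, limma adjusted p = 0.0202) while 16 of the 22 were positive, and its call was lost without infertile library 2 or any 1 fertile library (up to 0.0769). Inhbb, an activin and inhibin subunit gene, was at 67.7, 406 and 441 TPM in infertile ovaries, at 61.0 and 94.1 TPM in KO VOFD and at 126 and 105 TPM in WT CD. Infertile libraries 2 and 3 were far above the fertile ones and library 1 among them (difference 1.29, adjusted p = 0.324; 2.17 and 0.00441 without library 1). Inha, the inhibin alpha gene, had the same order, at 879, 3046 and 3410 TPM in infertile ovaries, at 1025 and 1530 TPM in KO VOFD and at 1386 and 1058 TPM in WT CD.

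Proliferation genes were positive in 20 of 20, with a median of 0.62, 7 apart higher (11.2% of all genes) and 0 calls. Rrm2, a ribonucleotide reductase gene, was at 18.0, 23.9 and 28.6 TPM in infertile ovaries, at 11.6 and 9.40 TPM in KO VOFD and at 10.0 and 14.6 TPM in WT CD (difference 0.97, adjusted p = 0.0992). Without infertile library 1, 12 of the 20 rose, in a fit where 473 of all genes tested were called higher. Of 26 oocyte genes 24 had a negative difference (median -0.34), with 0 calls and 0 apart, and library 1 was the lowest infertile library for Zp3 (48.2 TPM, against 133 and 84.0 TPM in libraries 2 and 3). The median over oocyte genes was 0.04 without infertile library 1 and -0.58 without infertile library 2.

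**Figure D4:**
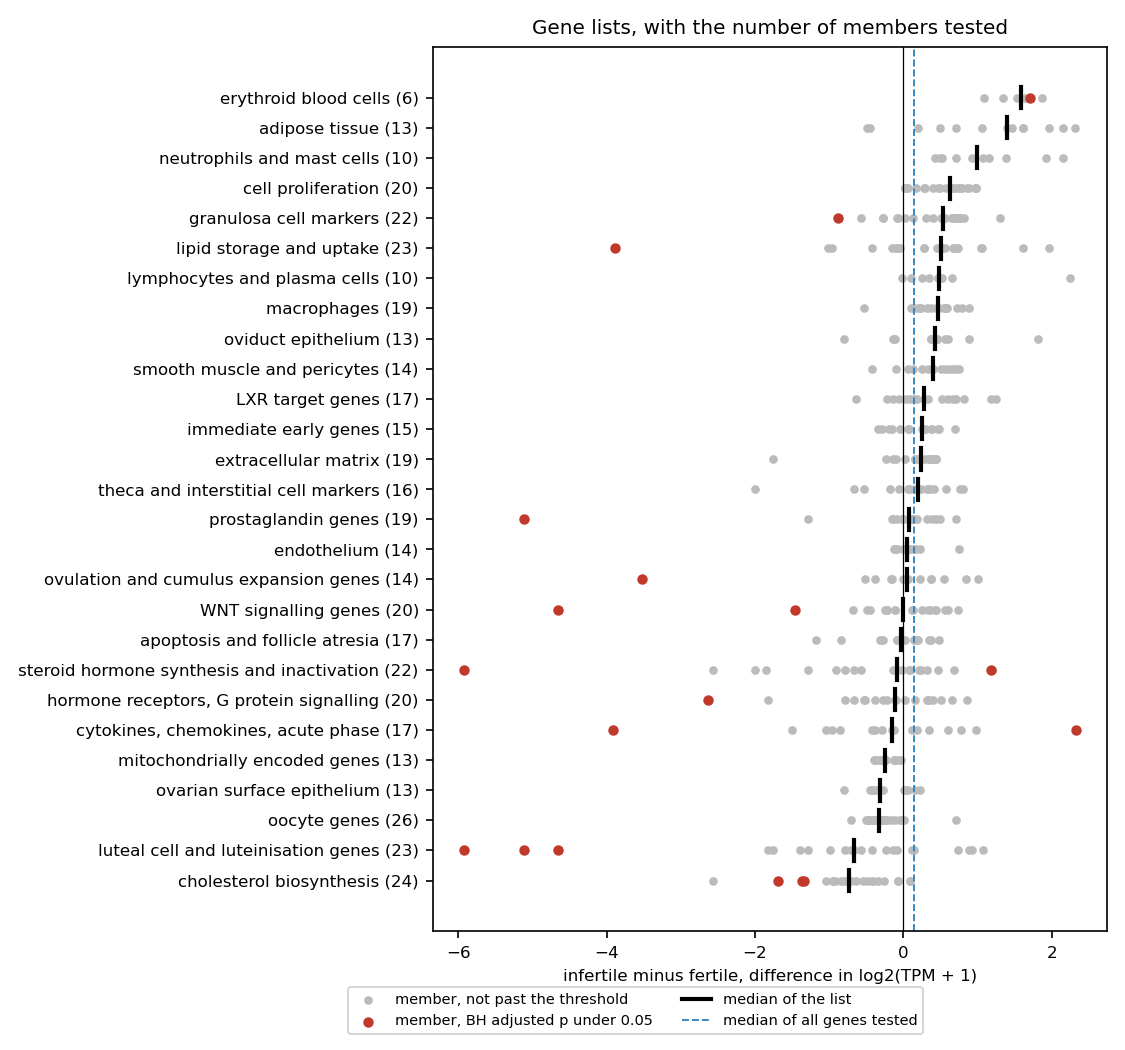
Difference between infertile and fertile ovaries in log2(TPM + 1) for each tested member of 27 gene lists, ordered by list median. Grey points did not pass the threshold, red points did, black ticks are list medians and the dashed line is the median of all genes, 0.15; the cholesterol (-0.74) and luteal lists (-0.67) stand lowest and the erythroid (1.58) and adipose lists (1.40) highest.

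How many genes were called depended most on infertile library 1. Without it 665 genes passed (473 higher and 192 lower, 618 of them protein coding), all 38 among them, and 47 passed against both fertile groups (23 higher and 24 lower). Without infertile library 2 the counts were 15 and 2, without infertile library 3 they were 32 and 5. Leaving out a fertile library gave 15 to 29 and 2 to 3.

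The other lists held 0 calls, and their medians were 0.19 for theca, 0.05 for endothelium (-0.11 under median-of-ratios scaling, -0.10 under quantile normalisation), 0.39 for smooth muscle, -0.32 for surface epithelium, 0.43 for oviduct, 0.25 for immediate early, -0.03 for apoptosis, 0.24 for matrix and -0.25 for mitochondrial genes. Oviduct turned to -0.02 without infertile library 3, matrix to -0.02 without infertile library 1 and immediate early to -0.01 without infertile library 2. Apoptosis turned to 0.06 without infertile library 2, and mitochondrial genes had -0.42 under median-of-ratios scaling and -0.05 under quantile normalisation. Ovgp1, an oviduct secretion gene, was at 17.3, 11.0 and 352 TPM in infertile ovaries, at 5.94 and 37.4 TPM in KO VOFD and at 3.23 and 18.2 TPM in WT CD. Infertile library 3 stood alone there.

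The largest rise among the 38 was in a gene copy. Gm12191 (ENSMUSG00000083061.1, chromosome 11, 49678710 to 49679057), a processed pseudogene named after its values were seen, was at 969, 1343 and 817 TPM in infertile ovaries, at 2.02 and 0.000164 TPM in KO VOFD and at 0.0130 and 0 TPM in WT CD. It rose by 9.59 (SE 0.39, limma adjusted p = 9.71e-06; 0.000156 against both groups) and no removal of 1 library ended either call. Its 348 bases match the ribosomal protein transcript Rpl30 at 99.7% identity over 100% of their length, so reads of the 2 can be split between them. Rpl30 was at 1686, 2287 and 1563 TPM in infertile ovaries, at 3168 and 3124 TPM in KO VOFD and at 3178 and 2952 TPM in WT CD. The sum of both was 2888 ± 657 TPM in infertile (SD, n = 3) and 3106 ± 105 TPM in fertile ovaries (SD, n = 4), a difference within the spread (exact permutation test, 2-sided p = 0.457). That test cannot give a p below 0.0571 with these libraries, so it does not show that the sum was unchanged. Gm12191 made up 36.5%, 37.0% and 34.3% of that sum in the infertile libraries.

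The calls outside the rule and not yet given were named after their values were seen. Gm21680, a gene model with near copies in the Speer family, rose by 1.46 (limma adjusted p = 0.0202). Gm8129, a copy of Rpl38, was listed at 0 in all infertile libraries, against 1.86 and 3.48 TPM in KO VOFD and 2.79 and 1.93 TPM in WT CD. Lhx9, a transcription factor gene of gonad formation, was at 18.0, 18.4 and 18.5 TPM in infertile ovaries, at 35.2 and 38.6 TPM in KO VOFD and at 31.9 and 34.7 TPM in WT CD, a fall of 0.90 (adjusted p = 0.0291). Nupr1, a stress response gene, fell by 1.41 (0.0435). Wdr41, Plch2, Fhl5, Nap1l2 and Tspan1 fell by 1.56, 1.76, 1.38, 1.64 and 1.17 (adjusted p 0.0256 to 0.0447). All 9 lost their call without infertile library 2 and without either WT CD library (adjusted p up to 0.157).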

How the data were processed

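RNA was measured by bulk sequencing of 7 mouse ovary libraries. The authors deposited TPM per gene, scaled to the same total in each library, so depth is unknown and no counting interval can be given. The build is GRCm38, per the submitters' processing notes. How reads were aligned and counted, on which annotation and whether by strand, is not given in the sources used here, so overlapping genes and near copies can share reads. Of 34866 gene IDs, 34582 carried a symbol and 34652 matched GENCODE M21.

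Genes with at least 1 TPM in at least 2 libraries were tested on log2(TPM + 1) with limma 3.58.1 (R 4.3.3 with the data.table package, intensity trend), with Benjamini-Hochberg adjustment over all genes tested and a threshold of 0.05. One fit compared infertile with fertile libraries. The other used 3 group means, and its larger p against the 2 fertile groups gave the test against both. The fits were checked on simulated data. Near copies were found with blastn 2.17.0 against GENCODE M21 transcripts. Promoter windows came from RefSeq.

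Members and lists were chosen with earlier results of these data known. Genes named by rule passed the threshold, did not overlap between the groups, averaged 5 TPM or more in the higher group and an unadjusted p under 0.05 with the same sign against each fertile group. Up to 15 per direction were taken by size, without gene models, pseudogenes, antibody segments and ribosomal protein genes, and each direction was filled to 10 by p. Up to 4 members of each list with the smallest p could also be named. Other genes were named after their values were seen, among them Calcrl, Cyp11a1, Hsd3b1, Star, Idh1, Tm7sf2, Mvk, Inhbb, Inha, Iglc2, Iglc3, Dhcr7, Hmgcs1, Hsd17b2, Lhx9 and the ovary markers Fshr and Amh. One cholesterol gene counted in its list is not reported here. Alternatives covered the pseudocount, the filter, the scaling, the trend, the model, a replicate block and each library left out.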

Additional observations from a re-analysis of the deposited data

Results flagged for a closer look

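In the 4 fertile libraries, 1 library stood far from the other 3 in 3 of 43 genes looked at. The rule used flags about 1 in 20 such sets by chance, so 3 is close to that rate. Gm12191 was at 2.02 TPM in KO VOFD library 1, against 0 to 0.0130 TPM in the other fertile libraries. Lgr5 was at 29.9 TPM in WT CD library 1, against 38.4 to 39.5 TPM in the others. Hba-a2 was at 154 TPM in WT CD library 2, against 241 to 255 TPM in the others. Each of these stayed apart from the infertile libraries, with Gm12191 and Hba-a2 higher and Lgr5 lower in those.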

How the results depend on the processing

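The 38 calls of infertile against fertile ovaries became 4 with no filter on low values, 66 with median-of-ratios scaling, 59 with quantile normalisation and 15 with a replicate block. They were 47 with a pseudocount of 0.1, 41 with a mean of at least 5 TPM, and 31 each without the trend and with 3 group means. Leaving out 1 library gave 15 to 665, and none of the 38 changed sign in any of these fits. The 4 calls against both fertile groups became 1 with no filter, 2 without the trend, 2 with separate fits and 2 to 47 when 1 library was left out. The 2 calls between KO VOFD and WT CD became 7 with a pseudocount of 0.1, 5 with no filter, 5 without the trend, 12 with a replicate block and 2 to 14 when 1 library was left out. With no filter 24820 genes were tested; the cause of the other shifts was not tested. Of the 38, the calls kept were 35 with median-of-ratios scaling, 34 with quantile normalisation, 26 without the trend, 25 with 3 group means, 11 with the replicate block and 9 to 38 with 1 library left out. Libraries of the same number had correlations of -0.186 to 0.0458 between their deviations from the group means. In a group of 2 libraries these deviations mirror each other, so the values cannot show whether a number marks a shared batch. The labels state no pairing, so the block is not taken as a paired analysis. TPM keeps no depth, so the precision of low genes cannot be given.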

Other observations

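Between KO VOFD and WT CD ovaries the 2 genes past the threshold were processed pseudogenes. Gm45315 was at 242 and 127 TPM in KO VOFD and listed at 0 in both WT CD libraries, while infertile ovaries had 96.3, 144 and 98.1 TPM. Gm6969 was at 229 and 205 TPM in KO VOFD and at 2.37 and 3.92 TPM in WT CD (difference 5.74), while infertile ovaries had 152, 239 and 224 TPM. For both, the KO libraries of either diet were thus high and the WT libraries low. The 38 genes were picked by a test of infertile libraries against a pool that includes KO VOFD. That pick works against such an order, so its absence among the 38 says nothing about genotype.

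Infertile library 1 parted from libraries 2 and 3 in genes of steroid making cells. Star was at 603 TPM in infertile library 1 and at 93.7 and 61.9 TPM in libraries 2 and 3, against 265 and 220 TPM in KO VOFD and 223 and 378 TPM in WT CD. Cyp17a1, the androgen synthesis gene of theca cells, was at 3.53 TPM in infertile library 1 and at 150 and 81.9 TPM in libraries 2 and 3, against 131 and 186 TPM in KO VOFD and 152 and 148 TPM in WT CD. Timp1, a protease inhibitor gene high in luteal tissue, was at 203 TPM in infertile library 1 and at 29.3 and 32.2 TPM in libraries 2 and 3, against 150 and 172 TPM in KO VOFD and 200 and 303 TPM in WT CD.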
